A study of Homo sapiens with 16 samples.

Results

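Epithelial cells hold to each other through E-cadherin at adherens junctions and through claudins at tight junctions, and RNA of 10 genes of this programme was compared between the colon cancer cell lines HCT116 and RKO under 3 drugs. The genes were CDH1 (E-cadherin), CLDN3, CLDN4 and CLDN7 (claudins), EPCAM (a cell surface adhesion protein), RAB25 (a small GTPase of epithelial membrane recycling), ST14 (matriptase, a membrane serine protease), ESRP1 and ESRP2 (epithelial splicing regulators) and GRHL2 (a transcription factor of epithelial genes). They were found as the probe sets of the Affymetrix Human Genome U133 Plus 2.0 array whose only platform symbol was one of these names, which gave 15 of 54675 probe sets and 9 of the 10 genes. The one probe set of ESRP2, 219395_at, also carries the symbol MIR6773, so it was kept apart and is described on its own.

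Both lines were established from colorectal carcinomas, and each was given 150 nM TSA, 0.5 µM 5-aza-dC and PJ-34 (3 µM for HCT116, 2 µM for RKO), singly, in pairs and all together, over 3 days, beside a control. 5-aza-dC (5-aza-2′-deoxycytidine) inhibits DNA methyltransferases, TSA (trichostatin A) inhibits histone deacetylases and PJ-34 inhibits poly(ADP-ribose) polymerases. Each of the 8 conditions of a line was 1 array, 16 in all, so no condition had a replicate. A drug effect was therefore tested over the 4 arrays with the drug against the 4 arrays without it, and the lines over 8 arrays each. The labels do not say whether the control cells received solvent.

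In epithelial cells, E-cadherin binds its like on the next cell and is tied to the actin cytoskeleton through catenins, and claudins set what may pass between the cells. GRHL2 binds enhancers of many of these genes, and ESRP1 and ESRP2 direct the splicing of other transcripts towards their epithelial forms. ZEB1, ZEB2, SNAI1 and SNAI2 are repressors that bind the E-box CAGGTG in the promoters of CDH1 and other epithelial genes. Loss of this programme is a known feature of the epithelial to mesenchymal transition, and methylation of the CDH1 promoter is one known way in which carcinoma cells silence it.

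The promoter windows of 4 of these genes are given as a description of where they hold this E-box. They were read from RefSeq (GRCh38.p14), from 250 bases before to 50 after the annotated start, 5′ to 3′ along the gene's own strand, and capitals mark the E-box CAGGTG and its reverse complement CACCTG, counted on both strands without overlap. Windows of the other 6 genes (CDH1, EPCAM, ST14, ESRP1, ESRP2 and GRHL2) were not used here, so these 4 do not stand for the whole set.
CLDN7, chr17:7262429-7262728, minus strand: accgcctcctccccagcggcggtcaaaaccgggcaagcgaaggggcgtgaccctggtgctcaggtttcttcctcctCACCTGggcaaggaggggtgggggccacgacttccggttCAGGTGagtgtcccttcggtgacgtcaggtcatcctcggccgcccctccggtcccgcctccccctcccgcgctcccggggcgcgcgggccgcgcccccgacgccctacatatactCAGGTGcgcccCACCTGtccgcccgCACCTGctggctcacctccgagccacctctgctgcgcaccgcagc
RAB25, chr1:156060910-156061209, plus strand: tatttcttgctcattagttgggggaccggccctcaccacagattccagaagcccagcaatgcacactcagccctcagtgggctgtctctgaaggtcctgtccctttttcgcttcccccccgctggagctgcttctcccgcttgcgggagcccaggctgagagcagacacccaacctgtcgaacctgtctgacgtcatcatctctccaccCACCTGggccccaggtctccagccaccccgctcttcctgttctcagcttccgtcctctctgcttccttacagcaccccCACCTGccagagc
CLDN3, chr7:73770221-73770520, minus strand: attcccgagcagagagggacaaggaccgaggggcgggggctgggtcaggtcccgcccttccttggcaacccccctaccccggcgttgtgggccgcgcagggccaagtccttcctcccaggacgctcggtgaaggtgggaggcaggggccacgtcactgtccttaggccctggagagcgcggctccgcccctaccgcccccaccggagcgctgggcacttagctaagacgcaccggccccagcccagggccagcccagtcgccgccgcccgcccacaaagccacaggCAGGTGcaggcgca
CLDN4, chr7:73830746-73831045, plus strand: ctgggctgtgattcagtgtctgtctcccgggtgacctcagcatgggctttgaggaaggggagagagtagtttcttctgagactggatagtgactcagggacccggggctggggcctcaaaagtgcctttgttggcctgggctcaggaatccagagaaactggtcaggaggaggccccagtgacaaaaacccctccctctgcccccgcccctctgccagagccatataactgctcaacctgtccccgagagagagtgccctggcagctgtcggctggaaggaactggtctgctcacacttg
The CLDN7 window held 5 such boxes, which 0.094% of 35116 promoter windows of the same length reach, and 30 CpG dinucleotides against a median of 14. RAB25 held 2 boxes (3.49% of windows have as many) and 9 CpG, CLDN3 held 1 box (20.6% of windows have at least as many) and 24 CpG, and CLDN4 held 0 boxes and 5 CpG. A second annotated start of CLDN7, at chr17:7263164-7263463, had 0 boxes and 10 CpG in its window. These letters are a description of the windows, and neither binding nor methylation was measured.

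The arrays had been scaled to 1 target by the authors (trimmed mean 1000.1 to 1000.2), with median signals of 152 to 210 and 21.9% to 27.3% of probe sets under 50. A signal under 50 in the control is what the study took as a silenced gene, and signals under 50 were set to 50 before log2 was taken. Among the RKO arrays, those labelled PJ-34/5-aza-dC and PJ-34 stood against their labels. Of 238 probe sets that 5-aza-dC raised in HCT116, 38.2% were at least 2-fold over the RKO control on the array labelled PJ-34 and 5.46% on the array labelled PJ-34/5-aza-dC, beside 36.6%, 38.7% and 43.7% on the other 3 arrays labelled with 5-aza-dC and 8.40% to 9.66% on both remaining arrays without it. Tests of drugs in RKO are therefore given with and without these 2 doubtful arrays, which were not swapped. In bulk RNA, fewer cells with a transcript and less of it per cell cannot be told apart.

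The levels of all 9 genes were higher in HCT116 than in RKO, and for most of them RKO was near the bottom of the scale. Of the 15 probe sets, 13 had all 8 HCT116 signals above all 8 RKO signals, against 7.61% of all probe sets, and the 2 others, CLDN4 1569421_at and ST14 216906_at, were dim in both lines (at most 143 in HCT116 and 162 in RKO). In the RKO control, 8 of the 15 probe sets read under 50, against 27.1% of all probe sets and 2.78% of those at 500 or more in the HCT116 control. Over all 8 RKO arrays, 13 of the 15 stayed under 250, CLDN7 and EPCAM being the exceptions.

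CDH1, the gene of E-cadherin, had in HCT116 signals of 5297 to 10572 with a median of 7168 (201131_s_at), while in RKO the lowest was 3.90, the median 11.4 and the highest 117. The log2 difference, HCT116 minus RKO, was 7.0 (SE 0.18, limma adjusted p = 6.01e-14, 8 arrays a line), which is 128-fold with RKO values held at 50 or more. Since 6 of the 8 RKO signals lay under 50, the fitted value is smaller than the difference of the deposited signals. The second CDH1 probe set, 201130_s_at, read 270 to 491 in HCT116 and 7.51 to 109 in RKO, a log2 difference of 2.49 (SE 0.29).

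Among the claudins, which form the strands of tight junctions, CLDN7 had signals of 5565 to 11955 in HCT116 (median 6991), against 9.60 to 543 in RKO (median 140), with a log2 difference of 5.58 (SE 0.34, limma adjusted p = 2.03e-09). CLDN4 lay between 1121 and 2373 in HCT116 and between 15.1 and 60.8 in RKO (201428_at, log2 difference 4.99, SE 0.20). CLDN3 lay between 633 and 2330 in HCT116 and between 18 and 203 in RKO with 203954_x_at, a log2 difference of 3.72 (SE 0.33). With 203953_s_at the difference of CLDN3 was 4.45 (SE 0.22), so both probe sets put it higher in HCT116. CLDN7 was the one claudin whose RKO signals lay both under 50 and over 250.

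EPCAM was the exception to the low RKO levels: its signals were 28158 to 35438 in HCT116 and 3544 to 4139 in RKO, a log2 difference of 3.03 (SE 0.07, limma adjusted p = 1.43e-14). The groups did not overlap, but no RKO array was near background for this gene. RAB25 read 5569 to 9137 in HCT116 and 9.69 to 105 in RKO (log2 difference 7.06, SE 0.18). ST14, the protease, read 1390 to 2336 in HCT116 and 15.2 to 116 in RKO with 202005_at (4.98, SE 0.20), and 727 to 1296 in HCT116 against 7.01 to 22.8 in RKO with 216905_s_at.

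The regulators of the programme had the same order of lines. ESRP1 had a median of 8252 in HCT116 (6003 to 15013) and of 12.1 in RKO (8.81 to 88.8) with 225846_at, with a log2 difference of 7.36 (SE 0.14, limma adjusted p = 3.04e-15). The other ESRP1 probe set, 219121_s_at, gave 6.95 (SE 0.20). GRHL2 lay between 778 and 2039 in HCT116 and between 57.9 and 159 in RKO (3.90, SE 0.22), so its RKO signals were dim but all over 50. The probe set with the symbols MIR6773 and ESRP2 differed from all of these: it read 1148 to 3059 in HCT116 and 1689 to 2235 in RKO, the 2 ranges overlapped, and its median was 1886 in HCT116 and 2054 in RKO. In HCT116 this probe set read 3059 with TSA, 2537 with PJ-34/TSA, 1148 with 5-aza-dC/TSA and 2429 with all 3 drugs, against 1728 with 5-aza-dC, 1480 with PJ-34, 2044 with PJ-34/5-aza-dC and 1214 in the control. The groups overlapped, and its TSA change was 0.44 (SE 0.25, limma adjusted p = 0.3).

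**Figure D1:**
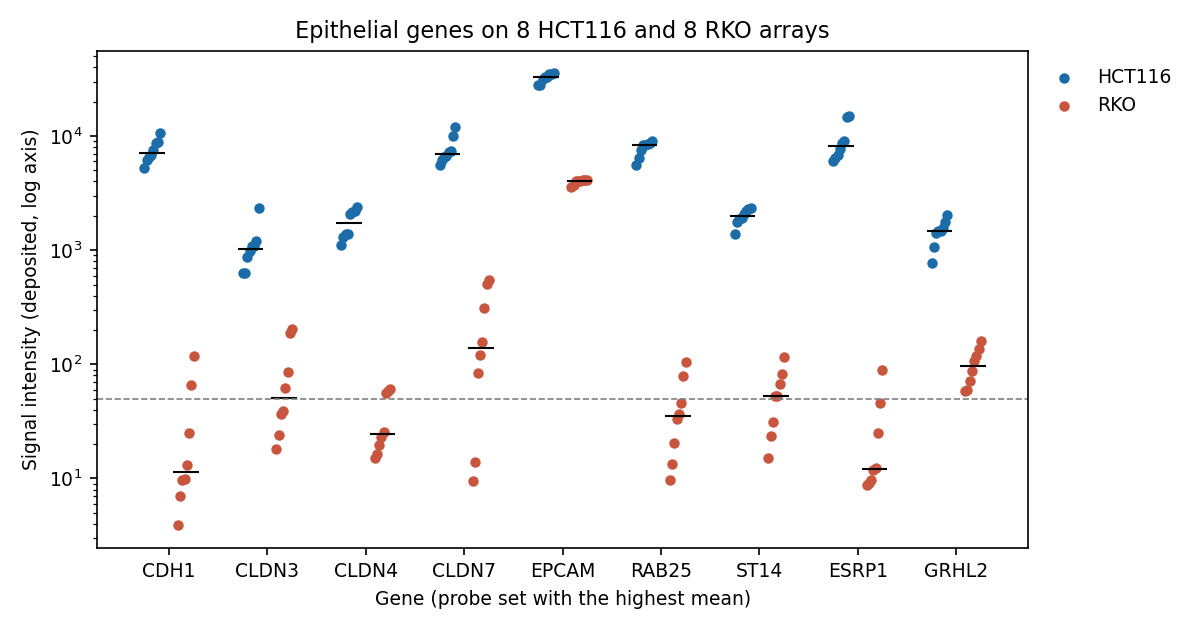
Signal intensity (log axis) of 9 genes on the 8 HCT116 arrays (blue, left) and the 8 RKO arrays (red, right), with 1 probe set per gene, a bar at the median of each line and a dashed line at 50. No gene has overlapping groups, EPCAM stays at 3544 or more in RKO, and CLDN7 spans 9.60 to 543 there.

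All 9 genes passed the test of the lines in the direction of HCT116 (limma, adjusted over 42119 probe sets), against 21.1% of all probe sets tested in that direction and 43.8% in either. Their median log2 difference was 4.99, beside -0.01 over all. Each of the 9 also passed in each of the 16 fits that left out 1 array, and with both doubtful RKO arrays left out. CDH1, CLDN3, CLDN4, ESRP1, RAB25 and ST14 entered this fit through their HCT116 signals, so their passing was close to given. The genes were also chosen with earlier results of these data known, so the count is a description. The values of ESRP1, RAB25 and CDH1 rest mostly on RKO signals held at 50, so they give no order among these genes.

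Genes of the same biology outside the 10 were mostly higher in HCT116 too. Of 14 tight junction genes tested, 9 were higher and 1 was lower: CXADR, a cell adhesion receptor, had a log2 difference of 6.50 (SE 0.17), the tricellular junction genes MARVELD2 and LSR had 1.55 (SE 0.09) and 1.45 (SE 0.09), and the claudin CLDN12 was lower in HCT116 by -1.31 (SE 0.07). The other 4 did not pass the test. Of 12 adherens junction and desmosome genes, 11 were higher, among them JUP (plakoglobin, 6.60), CDH3 (P-cadherin, 6.31), DSP (desmoplakin, 4.41) and DSC2 (desmocollin, 4.15), while CTNNB1 (β-catenin) had 0.03 (SE 0.05).

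Of 6 epithelial transcription factors tested, EHF (7.47), ELF3 (4.05), KLF5 (3.32), OVOL1 (2.72) and GRHL1 (0.83) were higher in HCT116, and OVOL2 was lower (-1.27, SE 0.17). All 15 tested genes of epithelial proteases, polarity and trafficking were higher, with MAL2 (a protein of apical transport) at 7.18, S100A14 at 5.63, SPINT2 (an inhibitor of matriptase) at 4.05 and CDS1 at 2.87. Of 10 repressors tested, ZEB1 was lower in HCT116 and 4 were higher. ZEB1 had signals of 162 to 510 in HCT116 and 20266 to 26029 in RKO with its chosen probe set, a log2 difference of -6.09 (SE 0.12, limma adjusted p = 5.93e-15).

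TWIST1 (2.23), SNAI1 (1.27), KLF8 (0.81) and TCF3 (0.25) were higher in HCT116, while SNAI2 had 0.27 (limma adjusted p = 0.528) and ZEB2 read under 250 on every array of both lines. KLF8 was dim in both lines too, at 8.45 to 224 in HCT116 and 5.93 to 117 in RKO. Of 11 mesenchymal markers, 2 were lower and 2 higher. VIM (vimentin) and COL1A1 were lower in HCT116 (-2.18 and -0.80), FN1 (fibronectin) and COL3A1 were higher (4.30 and 0.91), and CDH2 (N-cadherin) had 0.09 (limma adjusted p = 0.858) with both lines at 215 or less. COL3A1 was also dim, at 65.3 to 165 in HCT116 and 6.62 to 83.7 in RKO. Of the colon markers, CDX1, CDX2 and CDH17 read under 250 on all arrays of both lines. LGALS4 reached 441 in HCT116 and 155 in RKO, and VIL1 reached 253 in HCT116 and 198 in RKO. The keratins KRT19 (10.0), KRT8 (5.92), KRT20 (3.28) and KRT18 (2.68) were higher in HCT116. The blood markers PTPRC, CD3E and CD14 were under 250 throughout, HBB (a haemoglobin chain) read 84.2 to 590 in HCT116 and 36.8 to 225 in RKO and was higher in HCT116 (1.05, limma adjusted p = 0.0254), SRGN reached 1101 in HCT116 and 191 in RKO, and the summed signal of the 5 blood markers measured was 366 to 1609 in HCT116 and 299 to 691 in RKO.

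**Figure D2:**
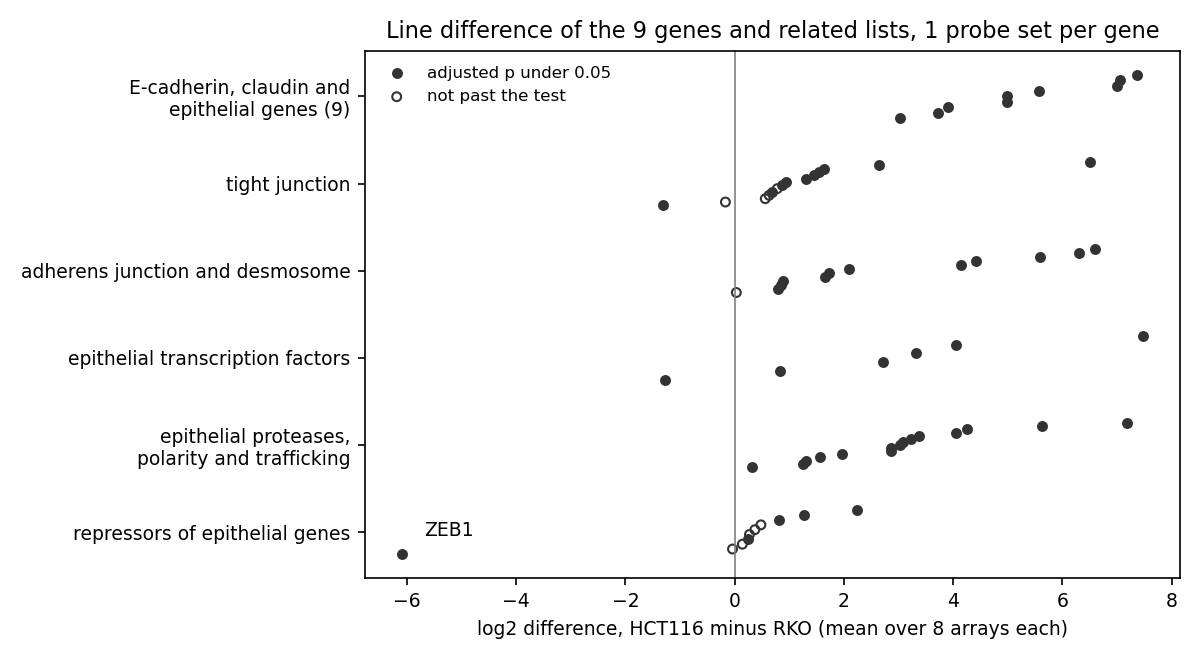
Log2 difference, HCT116 minus RKO, for the 9 genes and for 5 related lists, 1 point per gene, filled where the limma adjusted p was under 0.05. The 9 genes lie between 3.03 and 7.36, and ZEB1, at -6.09, is the one repressor below 0 among those past the test.

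In HCT116, 2 of the 9 genes, ESRP1 and CDH1, fell with TSA. ESRP1 read 7759 with TSA, 6797 with PJ-34/TSA, 6003 with 5-aza-dC/TSA and 6457 with all 3 drugs, against 9107 with 5-aza-dC, 15013 with PJ-34, 8746 with PJ-34/5-aza-dC and 14793 in the control (225846_at). All 4 arrays with TSA were below all 4 arrays without it. The fitted change was -0.78 (SE 0.12, limma adjusted p = 0.00206), a fold of 0.583, and it was lower in 4 of 4 pairs of arrays that differ in TSA alone. The probe set 219121_s_at gave -0.81 (SE 0.11, limma adjusted p = 0.0011), and the change of 225846_at passed in each of the 8 fits without 1 array.

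CDH1 read 6771 with TSA, 5297 with PJ-34/TSA, 6572 with 5-aza-dC/TSA and 6109 with all 3 drugs, against 8707 with 5-aza-dC, 7566 with PJ-34, 10572 with PJ-34/5-aza-dC and 8909 in the control (201131_s_at). These groups did not overlap either, and the change was -0.53 (SE 0.12, limma adjusted p = 0.0136), a fold of 0.694. The call was lost without the control array (limma adjusted p = 0.0727), without the PJ-34/5-aza-dC/TSA array (0.0583), without the PJ-34/TSA array (0.0568) and when both lines were fitted together (0.217). The other CDH1 probe set, 201130_s_at, gave -0.20 (SE 0.29, limma adjusted p = 0.731).

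CLDN3 changed under TSA by one of its probe sets. With 203953_s_at it read 849 with TSA, 794 with PJ-34/TSA, 725 with 5-aza-dC/TSA and 1062 with all 3 drugs, against 1516 with 5-aza-dC, 1502 with PJ-34, 1806 with PJ-34/5-aza-dC and 1454 in the control, a change of -0.88 (SE 0.16, limma adjusted p = 0.00598). With 203954_x_at, the probe set counted here, the change was -0.74 (SE 0.24) and the adjusted p 0.0688, or -0.99 with 0.00862 without the TSA array. Both probe sets were lower in 4 of 4 pairs.

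GRHL2 had a TSA change of -0.53 (SE 0.16, limma adjusted p = 0.0523) and was lower in 4 of 4 pairs, with 778 to 1484 on the 4 arrays with TSA and 1405 to 2039 on the 4 without it, so the groups overlapped. CLDN7 had -0.44 (limma adjusted p = 0.0964), which became -0.61 (0.0392) without the array of all 3 drugs, and CLDN4 had -0.44 (0.195). EPCAM (-0.13, SE 0.10), RAB25 (-0.10, SE 0.13) and ST14 (0.18, SE 0.16) did not pass the test. ST14 was the one gene of the 9 with a positive value, and its control array, at 1390, was the lowest of the 8.

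By count, 2 of 9 genes fell and 0 rose with TSA, against 4.83% of 35373 probe sets that fell and 4.16% that rose. At an unadjusted p under 0.05 there were 6 of 9, against 24% of all probe sets, and the median of the 9 was -0.44 beside -0.07 over all. Among other epithelial genes, TSA lowered 1 of 14 tight junction genes (CLDN15, -0.79), 2 of 12 adherens junction and desmosome genes (PPL, periplakin, -1.05, and EVPL, envoplakin, -0.98), 2 of 6 transcription factors (KLF5, -0.59, and EHF, -0.46) and 5 of 15 protease, polarity and trafficking genes, among them S100A14 (-1.21), LLGL2 (-0.95), ERBB3 (-0.87) and CDS1 (-0.57). Among 8 repressors tested, none passed, and ZEB1 had -0.78 (SE 0.31, limma adjusted p = 0.139), SNAI1 0.01 and SNAI2 0.70. The keratins KRT8 (0.87) and KRT19 (0.40) rose, so the epithelial genes did not all move one way.

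**Figure D3:**
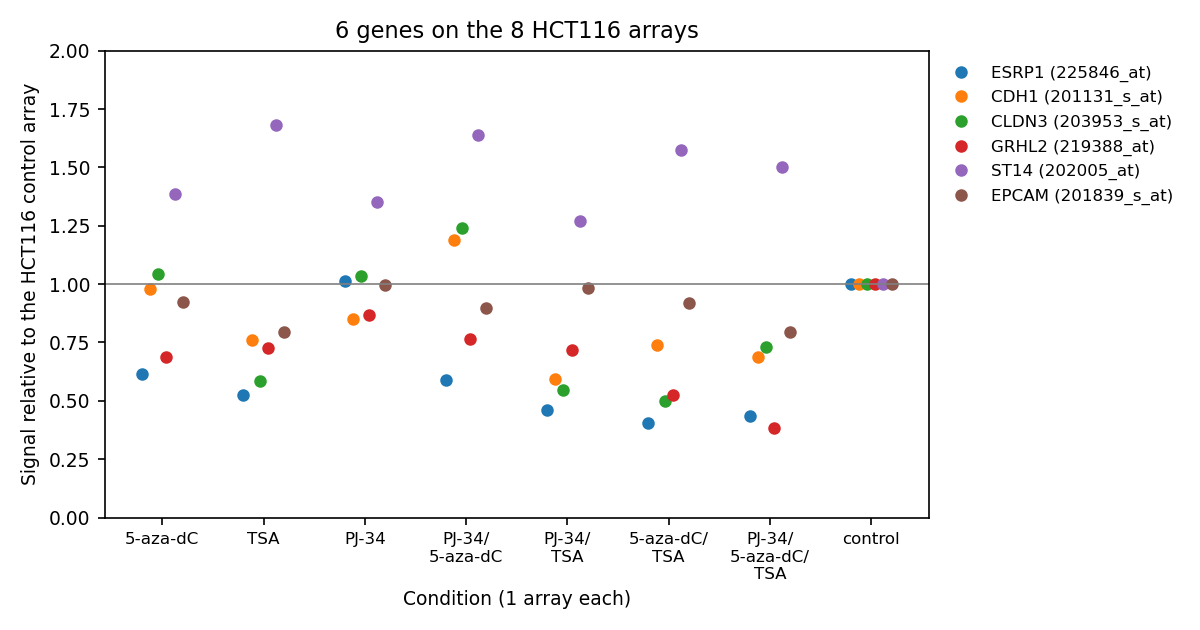
Signal of 6 genes on each of the 8 HCT116 arrays, relative to the control array (1 point per array). The ESRP1 points with TSA lie between 0.406 and 0.525, those of ST14 lie at 1.27 or above on every treated array, and EPCAM stays between 0.795 and 0.997.

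5-aza-dC changed none of the 9 genes in HCT116 (limma, 0 of 9, against 0.744% of all probe sets), with 2 of 9 at an unadjusted p under 0.05, against 10.6%. These 2 were ESRP1, at -0.48 (SE 0.12, limma adjusted p = 0.102), and GRHL2, at -0.53 (SE 0.16, adjusted p = 0.209), and each was lower in 4 of 4 pairs. Without the TSA array ESRP1 passed (-0.51, limma adjusted p = 0.0265). ESRP1 at 225846_at was 9107 with 5-aza-dC and 8746 with PJ-34/5-aza-dC, against 15013 with PJ-34 and 14793 in the control, so among the arrays without TSA those with 5-aza-dC were the lower pair. Among those with TSA, it was 6003 with 5-aza-dC/TSA and 6457 with all 3 drugs, against 7759 with TSA and 6797 with PJ-34/TSA.

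The other 7 genes had 5-aza-dC values in HCT116 of -0.27 (CLDN7) to 0.42 (CLDN3, SE 0.24), and CDH1 had 0.15 (SE 0.12). Over the same arrays VIM rose by 2.96 (SE 0.27), KRT20 by 3.09 (SE 0.19) and DSP by 0.52 (SE 0.09). PJ-34 changed 0 of 9 genes (0 of all 35373 probe sets, limma), and none was under an unadjusted p of 0.05, against 3.74% of all probe sets. The PJ-34 values ranged from -0.13 (GRHL2) to 0.33 (CLDN4, SE 0.20).

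**Figure D4:**
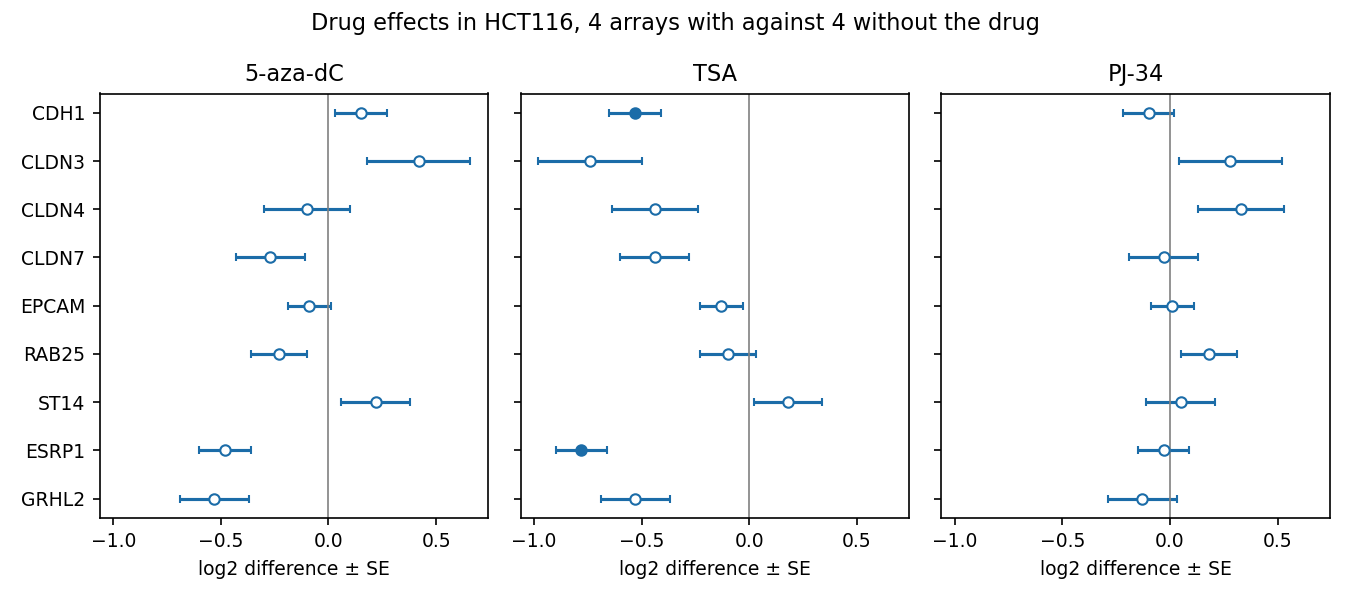
Log2 difference of each gene in HCT116 for 5-aza-dC, TSA and PJ-34 (4 arrays with against 4 without the drug), with bars of 1 SE and filled points where the limma adjusted p was under 0.05. ESRP1 (-0.78) and CDH1 (-0.53) under TSA are the filled points, and 8 of 9 genes lie below 0 under TSA.

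In RKO the question was which of the silent genes the drugs brought back, and CLDN7 reached the highest signal of those under 50 in the control. CLDN7 read 507 with 5-aza-dC, 14.1 with TSA, 543 on the array labelled PJ-34, 122 on the array labelled PJ-34/5-aza-dC, 83.2 with PJ-34/TSA, 309 with 5-aza-dC/TSA and 157 with all 3 drugs, against 9.60 in the control. The control and TSA arrays were under 50, and the other 6 were 8.67- to 56.5-fold over the control. The highest of these, 543, was 4.54% of the CLDN7 signal of the HCT116 control (11955). The folds over the RKO control rest on its signal of 9.60, near background. They would be smaller with it held at 50, as in the fits.

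VIM, which is no epithelial gene, was high on 4 of the arrays on which CLDN7 was over 50: it read 26632 with 5-aza-dC, 40710 with 5-aza-dC/TSA, 38113 with all 3 drugs and 38220 on the array labelled PJ-34, against 3149 with TSA, 2653 with PJ-34/TSA, 2420 on the array labelled PJ-34/5-aza-dC and 3556 in the control. For both genes the array labelled PJ-34 was with the 5-aza-dC arrays, and VIM was among the 238 probe sets that raised the doubt. For CLDN7 the array labelled PJ-34/5-aza-dC, at 122, was also above the control, as was that with PJ-34/TSA. Whether the doubtful arrays carry each other's labels was not tested.

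CDH1 showed no such grouping of arrays, and its 2 probe sets did not rise on the same arrays. With 201131_s_at CDH1 read 117 with 5-aza-dC, 9.77 with TSA, 13 on the array labelled PJ-34, 25.1 on the array labelled PJ-34/5-aza-dC, 65.8 with PJ-34/TSA, 3.90 with 5-aza-dC/TSA and 7.07 with all 3 drugs, against 9.83 in the control. With 201130_s_at it read 32.3, 87.0, 71.5, 79.6, 36.4, 8.85 and 109 on the same 7 arrays, against 7.51 in the control. On the 5-aza-dC/TSA array both probe sets were under 10, and no array had both at 50 or more. The highest, 117, was 1.32% of the signal of the same probe set in the HCT116 control (8909).

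ESRP1 was likewise split between probe sets. It reached 88.8 with 5-aza-dC/TSA by 225846_at, where 219121_s_at read 26.3, and 222 with all 3 drugs by 219121_s_at, where 225846_at read 12.3, against 8.81 and 13 in the control. RAB25 read 105 with PJ-34/TSA, 78.5 with 5-aza-dC and 9.69 to 45.7 on the other 5 treated arrays, against 20.5 in the control. ST14 reached 116 with 5-aza-dC (202005_at), 4.96-fold over the 23.5 of its control, and stayed at 22.8 or less by 216905_s_at. CLDN4 (201428_at) did not exceed 60.8 on any array, while by 1569421_at it read 162 with PJ-34/TSA and 136 with TSA, against 67.2 in the control. CLDN3 was highest in the control by 203953_s_at, at 77.7, but by 203954_x_at it read 203 with 5-aza-dC/TSA and 188 on the array labelled PJ-34, against 85.3 in the control, and 18 to 62.3 on the other 5 arrays.

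Reactivation was counted by the signal thresholds of the study (control under 50, treated at least 50 and at least 5-fold the control), without the detection flag that the study also required, which was not used here. By these thresholds 6 of the 15 probe sets, and of the 8 under 50 in the control, were reactivated on at least 1 of 7 treated RKO arrays, against 15.5% of all probe sets and 57.2% of all those under 50 in the control. Without the doubtful arrays it was also 6, against 14% and 51.7%. Per array the counts were 2 of 15 with 5-aza-dC (CDH1 and CLDN7), against 5.61% of all probe sets and 20.7% of those under 50 in the control, and 1 of 15 with TSA (CDH1), against 4.75% and 17.5%. The array labelled PJ-34 had 2 (CDH1 and CLDN7, against 5.26% and 19.4%), as did that labelled PJ-34/5-aza-dC (4.55% and 16.8%). There were 3 with PJ-34/TSA (CDH1, CLDN7 and RAB25, against 4.41% and 16.3%), 2 with 5-aza-dC/TSA (CLDN7 and ESRP1, against 5.19% and 19.1%) and 3 with all 3 drugs (CDH1, CLDN7 and ESRP1, against 7.29% and 26.9%).

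Of the 8 probe sets that began under 50, 1 to 3 per array met the rule, beside 16.3% to 26.9% of all such probe sets. The 3 with PJ-34/TSA stood beside the lowest of these shares, 16.3%. With so few probe sets, no count was tested against its share. With a treated signal of at least 250, CLDN7 alone remained of the 6. For CDH1 and ESRP1, no array had both probe sets past the rule. These rises have no replicate.

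**Figure D5:**
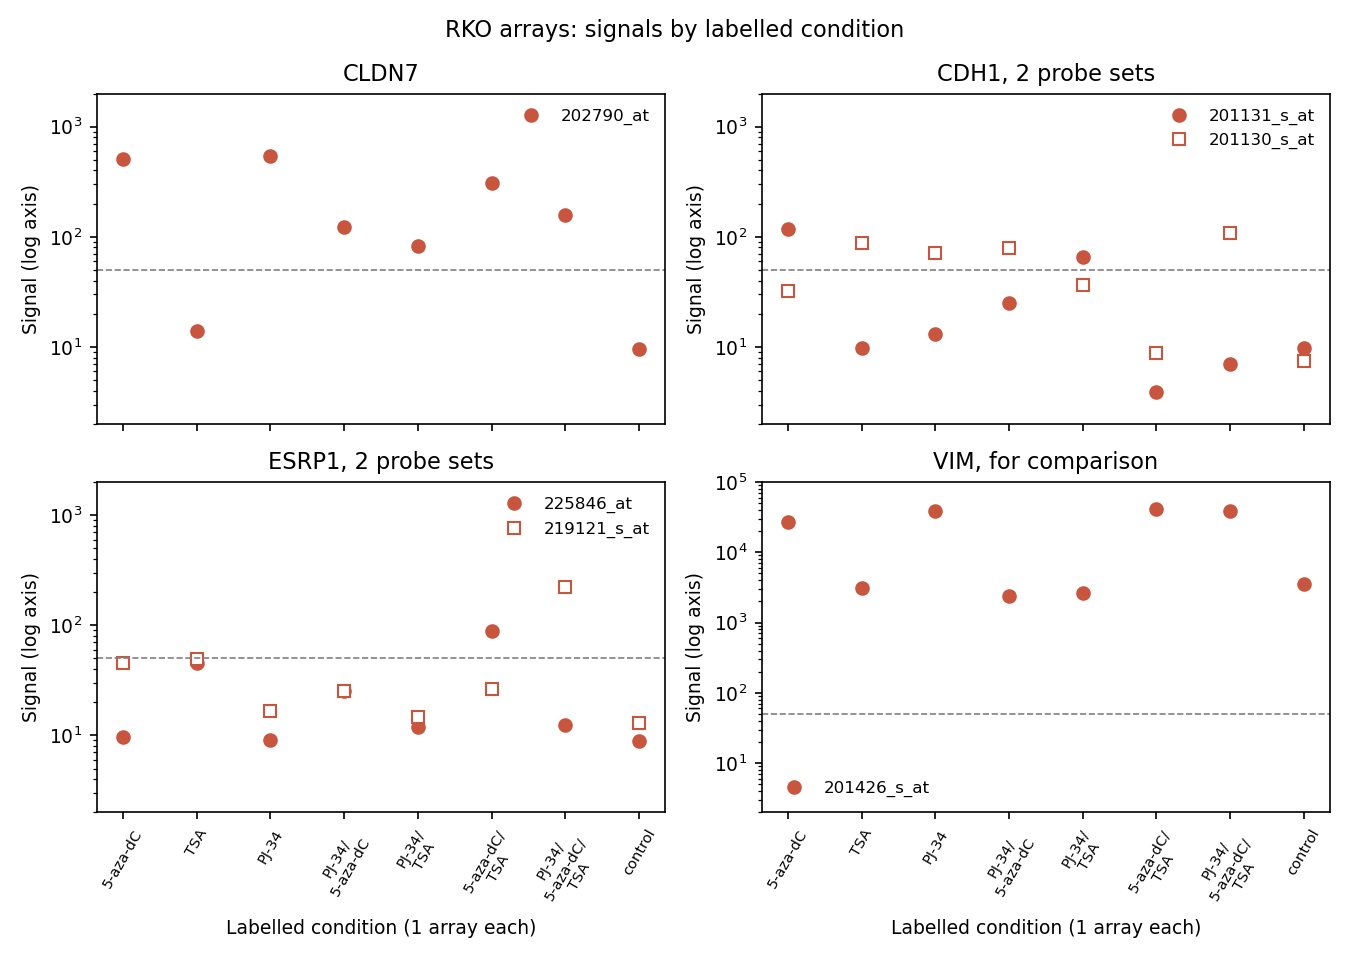
Signals (log axes) on the 8 RKO arrays, by labelled condition, of CLDN7, of both probe sets of CDH1 and of ESRP1 and, for comparison, of VIM, with a dashed line at 50. CLDN7 is at 9.60 in the control and at 83.2 to 543 on 6 arrays, while the 2 probe sets of CDH1 rise on different arrays.

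Tested over arrays, no gene was called in RKO when all 8 arrays were used. For 5-aza-dC this test used the labels of both doubtful arrays, so it does not show that no gene changed. EPCAM, CLDN7 and GRHL2 passed the filter (signal at least 100 on at least 4 arrays), the other 6 did not, and 0 of 3 was called for 5-aza-dC (0% of 33862 probe sets), TSA (0.00591%) or PJ-34 (0%), with 0 of 3 at an unadjusted p under 0.05 for each drug, against 5.19%, 12.3% and 2.64% of all. The 5-aza-dC values were 1.18 for CLDN7 (SE 0.70, limma adjusted p = 0.882), 0.34 for GRHL2 (SE 0.50) and 0.09 for EPCAM (SE 0.09), and those of TSA were -0.76, -0.49 and 0.00. EPCAM, whose RKO signals all lay between 3544 and 4139, had the smallest SE of the 3.

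A wider fit took every probe set with at least 1 RKO signal of 100 or more (47000), which tested 11 of the 15 probe sets, with at least 1 for each of the 9 genes and the counted probe set for 7 of them. None was called for 5-aza-dC (0% of all), TSA (0.213%) or PJ-34 (0%) with 8 arrays, and CLDN7 under 5-aza-dC had 1.18 (SE 0.63, limma adjusted p = 0.926). Without the doubtful arrays, CLDN7 had 2.30 (SE 0.56, limma adjusted p = 0.0127) and was called with 1204 of 45744 probe sets (2.63%). No other gene of the 9 was called. There CLDN7 reached 100 only with 5-aza-dC (507), 5-aza-dC/TSA (309) and PJ-34/5-aza-dC/TSA (157). It read 9.60 in the control, 14.1 with TSA and 83.2 with PJ-34/TSA. CLDN7 thus entered this fit through the arrays on which it was high. Its control and TSA signals were held at the floor, which partly set the spread without 5-aza-dC. The call is therefore a description. For TSA (0.374% of all called) and PJ-34 (0.0262%), none of the 9 was called on these 6 arrays. Both PJ-34 arrays left among them also carried TSA, so PJ-34 was read only beside TSA. These tests are therefore weaker than those on 8 arrays. Under 5-aza-dC, CDH1 then had 0.28 (201131_s_at, limma adjusted p = 0.884) and 0.11 (201130_s_at, 0.958).

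The CLDN7 call on these 6 arrays was lost whenever 1 more array was left out. Its value was then 1.77 to 2.98 (SE 0.45 to 0.77) and the limma adjusted p 0.562 to 0.688. So few arrays then remained beside the 3 drug terms that the loss does not show dependence on any 1 array. The call held with a floor of 20 (3.18, limma adjusted p = 0.0274) and was lost with quantile normalization (2.09, 0.0574). These 3 settings were chosen after the data were seen. With only the array labelled PJ-34 left out it was 2.12 (0.0552), and with only the array labelled PJ-34/5-aza-dC left out 1.92 (0.15).

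The drug effects were also compared between the lines within 1 fit of 16 arrays. None of the 9 genes was called as different for 5-aza-dC (limma, 0.0427% of 42119 probe sets were), TSA (0.283%) or PJ-34 (0%). At an unadjusted p under 0.05 there were 2, 1 and 0 of 9, against 7.44%, 11.9% and 3.49% of all. The largest difference for 5-aza-dC, HCT116 minus RKO, was that of CLDN7, at -1.45 (SE 0.68, limma adjusted p = 0.671), and for TSA that of ESRP1, at -0.99 (SE 0.28, adjusted p = 0.152). Without the doubtful arrays, CLDN7 differed by -2.48 (SE 0.42, limma adjusted p = 0.0156, with 0.231% of all probe sets called), being -0.27 in HCT116 alone (SE 0.16) and 2.30 in the 6 RKO arrays. For CDH1, CLDN3, CLDN4, ESRP1, RAB25 and ST14, which entered this fit through their HCT116 signals, 3 to 7 of the 8 RKO signals were held at 50. Their RKO effect was thereby limited, a fall in RKO could not be measured, and the comparison says little about these 6 genes.

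The repressor ZEB1 did not separate the RKO arrays labelled with 5-aza-dC from those labelled without it. It read 25195 with 5-aza-dC, 23409 with 5-aza-dC/TSA, 20266 with all 3 drugs and 26029 on the array labelled PJ-34/5-aza-dC, against 22876 with TSA, 23114 with PJ-34/TSA, 22954 on the array labelled PJ-34 and 24907 in the control. Its 5-aza-dC value was 0.01 (SE 0.07, limma adjusted p = 0.985). SNAI1 had a 5-aza-dC value of 1.68 (SE 0.42, limma adjusted p = 0.882). Without the doubtful arrays these values were -0.05 for ZEB1 (SE 0.07, limma adjusted p = 0.816) and 1.85 for SNAI1 (SE 0.47, limma adjusted p = 0.0639). In none of the lists of junction, transcription factor, trafficking, repressor, mesenchymal, colon or blood genes was a gene called for any drug in RKO with 8 arrays. Without the doubtful arrays, 5-aza-dC raised VIM (3.48, SE 0.13, limma adjusted p = 7.94e-09) and MYO5B, a myosin of membrane recycling (0.54, SE 0.13, limma adjusted p = 0.0463), against 1.96% of 31057 probe sets called, and no gene of these lists was called for TSA (0.0161%) or PJ-34 (0%). There too, PJ-34 was read only beside TSA. The VIM probe set was among the 238 by which those arrays were judged doubtful. Its call reuses those values and is a description.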

How the data were processed

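RNA of HCT116 and RKO cells was measured on 16 Affymetrix arrays, 1 per condition. The deposited values were linear signal intensities that the authors had made from the scanned arrays in GCOS, each array being scaled to the same target, and the GCOS version is not stated; detection calls were not used here. The line and drugs of each array were taken from the labels and the doses from the study's methods, and for PJ-34 in RKO the 2 µM given there was kept, although another place in the study's text gives 3 µM.

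Probe sets were named through the platform annotation, in which 41097 had 1 gene symbol, 1801 several and 11777 none. Only the first kind was used for counts of genes, so the ESRP2 probe set, which has a second symbol, entered none, and some genes of the related lists are not reported here. The 62 control probe sets were left out.

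Signals below 50 were raised to 50 before taking log2. Those probe sets that reached 100 on 4 or more arrays of a fit were tested in limma 3.58.1 (R 4.3.3; eBayes with an intensity trend), with Benjamini-Hochberg adjustment over all of them at 0.05. Within a line the 3 drugs were terms; over both lines the terms were line, drugs, pairs of drugs and line by drug. A wider RKO fit took probe sets with at least 1 RKO signal of 100 or more. With 1 array per condition, interactions that were not modelled enter the residual, and the number of arrays limits the precision. The p-values measure only spread between these arrays, which limma moderates over all probe sets tested, and not that between replicates. In RKO without the doubtful arrays, they rest largely on the spread of the other probe sets. The fit within a line was tested on simulated data.

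For counts of genes, each gene was represented by its probe set with the highest mean log2 signal. Genes outside the 10 were named by rule (up to 4 per list and comparison with the smallest adjusted p among those called, plus ZEB1, ZEB2, SNAI1, SNAI2, VIM and CDH2). CTNNB1, GRHL1, OVOL2, KLF8, LGALS4, VIL1 and the markers given as under 250 were added after their values were seen. The genes and lists were chosen with earlier results of these data known. Alternatives were a floor of 20, no filter on low signals, quantile normalization, no pairs of drugs, 1 fit of 16 arrays for drug effects within a line, a preference for probe sets ending in _at, other thresholds for silent and reactivated, and leaving out 1 array or both doubtful RKO arrays (for the related lists, the last was added after the data were seen).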

Additional observations from a re-analysis of the deposited data

How the results depend on the processing

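No paired analysis was possible because the labels number each group's 1 array 1, so replicate numbers pair nothing within a group comparison; arrays that differ in 1 drug alone were compared by direction. The calls of the 9 genes between the lines held under each alternative with a test. Among the alternatives other than leaving out 1 array, 283 values of single genes kept their direction and side of the threshold, 5 changed sign, 3 passed it and 1 no longer did, and 6, from the control arrays alone and untested, moved further than the spread between arrays. With 1 array left out, 587 kept both, 37 changed sign, 3 passed and 3 no longer did. Of the 9 genes called for TSA in HCT116 there was 1, not 2, with 16 arrays in 1 fit (CDH1 was lost), and 1 to 3 with 1 array left out (3 without the TSA array, which added CLDN3). For 5-aza-dC in HCT116 it was 0 to 1, the 1 being ESRP1 without the TSA array. For the difference of 5-aza-dC effects, HCT116 minus RKO, 1 gene (CLDN7) was called without both doubtful RKO arrays and 0 with them. Reactivated probe sets were 1 with a treated signal of at least 250, not 6, and silent ones 13 under 100, not 8. All values that changed sign had not passed the test with all arrays, and the cause was not tested. With quantile normalization, these were the differences of CDH1 for 5-aza-dC (0.01) and GRHL2 for TSA (0.07); without both doubtful RKO arrays, the TSA differences of CDH1 (0.21), CLDN7 (-0.11) and RAB25 (0.17). With 1 array left out, the 5-aza-dC differences ranged over -0.32 to 0.32 (CDH1), -0.01 to 1.4 (CLDN3), -0.49 to 0.16 (RAB25) and -0.39 to 0.11 (ST14). The TSA differences ranged over -1.32 to 0.09 (CLDN3), -0.59 to 1.16 (CLDN7), -0.4 to 0.27 (GRHL2), -0.49 to 0.16 (RAB25) and -0.06 to 0.45 (ST14). Within a line, the ranges were -0.34 to 0.09 for CLDN4 with 5-aza-dC in HCT116, -1.5 to 0.17 for CLDN7 with TSA in RKO and -0.22 to 0.01 for RAB25 with TSA in HCT116. Signals held at 50 limit what could be measured in RKO.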

Other observations

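Across the 8 HCT116 arrays, the genes whose log2 signals followed those of CDH1 most closely, of 11562 genes compared, were LRRC14 (Pearson r = 0.968), SEMA4B (0.963), RASAL1 (0.963), LOC100996740 (0.96) and ADSS1 (0.958). Of the 9 genes, CLDN3 was nearest to CDH1 (0.838), then ESRP1 (0.558), GRHL2 (0.501), CLDN7 (0.485), CLDN4 (0.46), EPCAM (0.184), RAB25 (0.171) and ST14 (-0.074). These are descriptions over arrays that share their cell line and drugs, and over both lines the signals fall into 2 clusters, so no r is given there.

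SRGN (serglycin, a proteoglycan of blood cell granules), a member of the blood marker list, rose with 5-aza-dC in HCT116 by 3.40 on the log2 scale (SE 0.43, limma adjusted p = 0.00104, 4 arrays with and 4 without the drug), where none of the 9 epithelial genes was called. Its signals ran between 14.2 and 1101 in HCT116 and between 22.0 and 191 in RKO.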
